A study of Mus musculus with 6 samples.

Results

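DNA replication and the passage from G1 into S phase are described here through 44 genes chosen by name: origin licensing factors, parts of the replicative helicase, polymerases and their primase, the sliding clamp and its loader, enzymes of nucleotide supply, chromatin factors of the fork, G1/S transcription factors with E-type cyclins, and Brca1. All 44 had a row among the 17975 genes of the expression table. RNA was sequenced from liver tissue of 3 control mice (WT) and 3 mice whose hepatocytes lacked Nek7 (Hom), each liver giving 1 library. NEK7 is a mitotic kinase that also takes part in NLRP3 inflammasome assembly. Hom mice were homozygous for a floxed NEK7 allele. Cre recombinase under the albumin promoter, which is active in hepatocytes, removed the gene there, so the other cells of the liver kept it. The labels describe the control livers only as WT, the colony was on a C57BL/6 background, and neither age nor sex of these mice is in the labels. Libraries held 19349418 to 19730236 estimated reads.

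Before S phase, the origin recognition complex, CDC6 and CDT1 load the MCM2 to MCM7 ring onto DNA, and CDC45, the GINS complex and MCM10 turn that ring into a moving helicase. Polymerase alpha with its primase lays down primers, polymerases epsilon and delta extend them on the leading and lagging strands, and PCNA, loaded by the RFC complex, holds them on DNA. Most of these genes are transcribed at the G1/S boundary under E2F factors, whereas genes of mitosis are transcribed later, from promoters that often hold CCAAT boxes and a CHR element. Hepatocytes of an adult liver are mostly quiescent and enter the cycle after injury.

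Promoters were searched because E2F factors are known to drive many of these genes. The windows were RefSeq's, on build GRCm38.p6, from 250 bases before to 50 after the gene start, and 36 of the 44 genes had one (Mcm4, Gins1, Gins2, Gins4, Prim2, Pole, Rfc2 and Ccne2 did not). An E2F site spelled TTTCCCGC, TTTCGCGC, TTTGCCGC or TTTGGCGC, on either strand, was present in 14 of the 36 genes (38.9%), against 2.6% of 27025 genes with a window and 4.41% of the 11004 genes that were both tested and had one. CCAAT was present in 61.1% of the genes, against 41.1% of all genes with a window and 42.8% of the tested ones. TTTGAA, the CHR element, was present in 13.9%, against 20.2% and 14.9%. Of 20 E2F matches, 4 overlapped another E2F match and 1 overlapped a CCAAT. Sites of 8 genes are printed to show that the same letters stood in genes past the threshold (Mcm6 and Uhrf1), in genes that were not, and in the untested Orc1 and Cdc6, with the match in capitals and 10 bases on each side, 5′ to 3′ on the strand of the gene.
Mcm6: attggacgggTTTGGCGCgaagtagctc
Uhrf1: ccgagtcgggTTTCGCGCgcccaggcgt
Mcm5: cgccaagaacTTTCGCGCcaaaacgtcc
Mcm7: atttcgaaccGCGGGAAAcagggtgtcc
Gins3: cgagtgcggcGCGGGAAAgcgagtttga
Pola1: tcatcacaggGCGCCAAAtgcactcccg
Orc1: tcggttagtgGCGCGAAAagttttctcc
Cdc6: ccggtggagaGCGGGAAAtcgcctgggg

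Among genes that were higher in Hom livers, 2 of 5 with a window held an E2F match (Mcm6 and Uhrf1). Among those that were lower, 0 of 3 did, and among those not past the threshold 10 of 26 did. The 250 bases before the gene start are given for Mcm6 and Uhrf1, which rose, and for Mcm10 and Tk1, which fell, with every E2F or CCAAT match in capitals. Mcm6 lies on the minus strand (chr1:128359706-128359955), Uhrf1 on the plus strand (chr17:56304063-56304312), Mcm10 on the minus strand (chr2:5012792-5013041) and Tk1 on the minus strand (chr11:117826015-117826264).
Mcm6: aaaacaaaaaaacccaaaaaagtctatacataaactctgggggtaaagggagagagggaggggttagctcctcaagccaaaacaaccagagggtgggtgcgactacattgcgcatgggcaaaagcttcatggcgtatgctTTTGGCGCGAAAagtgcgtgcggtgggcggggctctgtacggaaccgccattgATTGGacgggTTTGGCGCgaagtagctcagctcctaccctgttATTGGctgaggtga
Uhrf1: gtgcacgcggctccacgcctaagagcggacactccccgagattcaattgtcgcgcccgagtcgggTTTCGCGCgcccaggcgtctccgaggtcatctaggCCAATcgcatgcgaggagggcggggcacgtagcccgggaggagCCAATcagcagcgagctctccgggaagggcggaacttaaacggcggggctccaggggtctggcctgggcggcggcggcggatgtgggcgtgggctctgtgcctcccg
Mcm10: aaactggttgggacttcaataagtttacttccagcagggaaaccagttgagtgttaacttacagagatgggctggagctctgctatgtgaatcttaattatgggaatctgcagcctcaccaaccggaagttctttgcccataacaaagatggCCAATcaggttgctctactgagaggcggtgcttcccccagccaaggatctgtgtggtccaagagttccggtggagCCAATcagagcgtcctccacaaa
Tk1: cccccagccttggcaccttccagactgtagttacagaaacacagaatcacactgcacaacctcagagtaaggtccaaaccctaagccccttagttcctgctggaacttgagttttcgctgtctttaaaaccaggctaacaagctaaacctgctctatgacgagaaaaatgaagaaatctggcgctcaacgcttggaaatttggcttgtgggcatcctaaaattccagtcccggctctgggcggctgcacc

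In these windows Mcm6 held 3 E2F matches and 2 CCAAT boxes, Uhrf1 1 and 2, Mcm10 0 and 2, and Tk1 0 and 0. Uhrf1 has another window that is not printed (chr17:56303087-56303336), with 0 E2F matches and 1 CCAAT. Some genes have several windows, and a gene was counted if any of them held a match. A match is a match of letters only, and a window without one says nothing of the factor.

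Nek7 itself was read first as a check of the labels. Hom livers had 310, 439 and 387 estimated counts of it, below every WT liver (1127, 1077 and 1036), a log2 fold change of -1.99 ± 0.10 (standard error). Hepatocyte markers, summed, made up 105300 to 176230 TPM (RNA level per length, each liver scaled to the same total) in every liver. Hom replicate 1 stood apart: it had no count of the Y-linked genes Ddx3y and Kdm5d, of which each of the other 5 livers had at least 243. Of the Y-linked Eif2s3y and Uty it had 4 and 149 counts, the other livers having at least 582 and 464. Whether this mouse differs in sex from the others is not in the labels. WT replicate 1 held more neutrophil marker RNA than the other WT livers, with 413.7 TPM summed over 9 genes against 9.25 and 22.7. Results that rest on either liver are given below with and without it.

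Across the replication and G1/S genes, some rose, some fell and most did not pass the test. Of the 44 genes, 42 had enough reads to be tested; 9 were higher in Hom livers (21.4% of those tested, against 21.5% of all 13805 genes tested) and 3 were lower (7.14% against 20.1%) at an adjusted p of 0.05 (quasi-likelihood test of edgeR, Benjamini-Hochberg adjustment). Mcm2, Mcm4, Mcm6, Gins2, Pole, Rfc2, Uhrf1, Ccne1 and Brca1 rose. Mcm10, Rfc5 and Tk1 fell. The other 30 did not pass the threshold. At a log2 fold change of at least 1 as well, 4 were higher and 2 lower, beside 13.2% and 4.17% of all genes. The log2 fold changes ran from -3.39 to 2.17 with a median of 0.16, beside a median of -0.0018 over all genes, and 27 were above 0. In 11 genes all 3 Hom livers lay above all 3 WT livers (26.2%, against 28.7% of all genes) and in 4 they lay below (9.52%, against 27%).

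**Figure D1:**
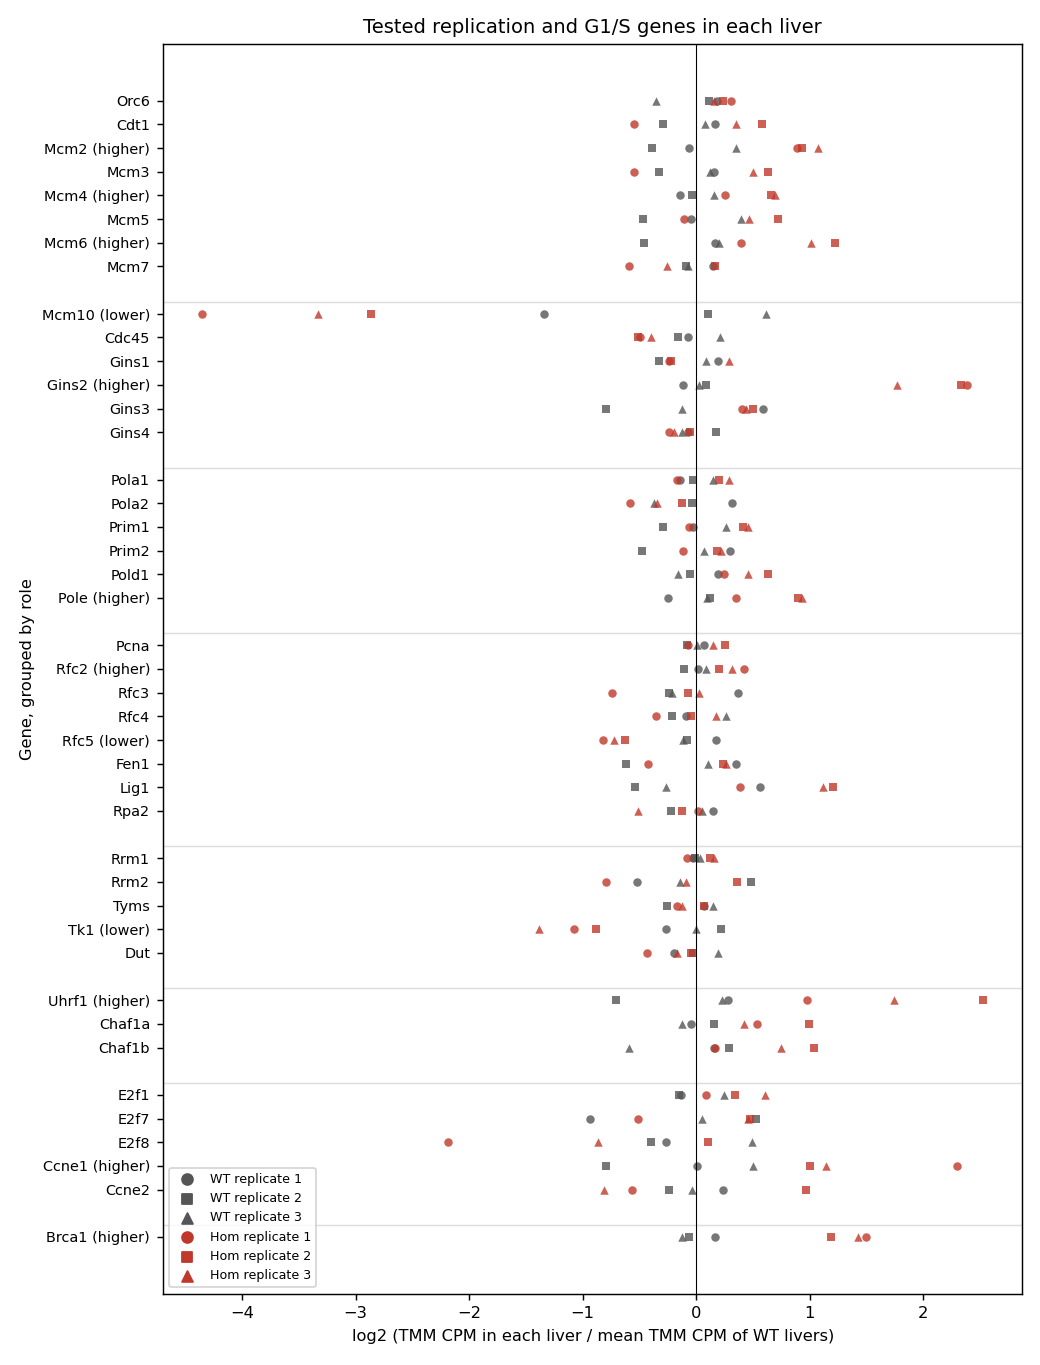
Each point is 1 liver, as the log2 ratio of its TMM-scaled CPM to the mean of the 3 WT livers (horizontal axis), for the 42 tested genes grouped by role (vertical axis), with grey for WT and red for Hom. Mcm10 lies far to the left in all 3 Hom livers and Gins2 far to the right, while Hom replicate 1 (red circle) is the lowest Hom liver in 32 of 42 genes.

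Scaling set how many genes passed. The main scaling (TMM) assumes that most genes do not change; scaled by library size alone, all genes shifted by a median of 0.45 on the log2 scale, 17 of the 42 were higher and 2 lower, and 47.6% of all genes were higher and 4.65% lower. The higher genes gained were Orc6, Pold1, Pcna, Lig1, Rrm1, Chaf1a, Chaf1b and E2f1, and Rfc5 was lost among the lower. With that scaling 37 of the 42 log2 fold changes were above 0, so the 15 negative values fell to 5, and directions of genes that did not pass are not read here. The count of higher genes also depended on single livers. It was 8 without Hom replicate 1, 4 without Hom replicate 2, 3 without Hom replicate 3, 6 without WT replicate 1, 3 without WT replicate 2 and 5 without WT replicate 3, whereas 3 genes were lower in each of these. These fits have fewer livers, and the share of all genes that were higher in them is not given here. The drops are therefore not read as particular to these genes. In bulk liver, fewer cells of a type and less RNA per cell cannot be told apart.

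Of the 10 licensing genes 8 were tested. Among these, 3 of the 6 subunits of the MCM2 to MCM7 ring rose and none of the 8 fell, beside 21.5% and 20.1% of all genes. Mcm2 had the largest fitted rise: WT replicates 1, 2 and 3 had 62, 43 and 75 estimated counts, and the Hom livers, in the same order here and below, 143, 167 and 176. Every Hom liver was above every WT liver, with 7.05 ± 0.478 CPM (counts relative to the TMM-scaled library total; SD, n = 3) against 3.61 ± 0.934, a log2 fold change of 0.96 ± 0.21 (edgeR adjusted p = 0.0118). Mcm6 had 103, 58 and 96 counts in WT and 144, 291 and 240 in Hom livers, and the groups did not overlap, though Hom replicate 1 lay nearest to WT. Its log2 fold change was 0.92 ± 0.27 (edgeR adjusted p = 0.0326), within error of that of Mcm2. Without WT replicate 1 or Hom replicate 1, Mcm6 had the larger value (1.01 against 0.93 and 1.12 against 1.00). Mcm4 had 77, 72 and 86 counts in WT and 121, 182 and 178 in Hom livers, again without overlap and with the smallest rise of the 3 (0.55 ± 0.18, edgeR adjusted p = 0.0454). Mcm2 passed under all 14 alternatives counted for a single gene. A minimum log2 fold change of 1, which none of these 3 genes reaches, is not among the 14. Mcm6 passed in 8, and with a liver left out only without WT replicate 1 or Hom replicate 1. Mcm4 passed in 5, and with a liver left out only without Hom replicate 1.

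The other subunits of the same ring did not pass. Mcm3 (80, 50 and 71 against 59, 151 and 132 counts, log2 fold change 0.29 ± 0.33) and Mcm5 (60, 39 and 74 against 69, 139 and 111, 0.40 ± 0.30) each had Hom replicates 2 and 3 above every WT liver in CPM, with Hom replicate 1 below every WT liver for Mcm3 and within their range for Mcm5. Mcm7, whose transcript unit also holds the microRNAs Mir25 and Mir93, had 297, 219 and 232 counts in WT and 213, 407 and 291 in Hom livers, with a log2 fold change of -0.19 ± 0.20 that turned to 0.27 with library size alone. Per length, Mcm7 was the most abundant subunit in both groups, at 9.16 ± 1.98 TPM in WT and 12.4 ± 4.15 TPM in Hom livers (SD, n = 3), above Mcm2 to Mcm6 (means of 1.47 to 2.42 in WT and 3.03 to 7.17 in Hom). The ratio of Mcm7 to the mean of Mcm2 to Mcm6, which no scaling between livers can change, was 5.33, 5.61 and 3.95 in WT and 2.68, 2.97 and 2.35 in Hom livers. Mcm7 thus stood less far above the other subunits in every Hom liver than in any WT liver.

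Loading factors gave few reads. Orc6, a subunit of the origin recognition complex, had 59, 49 and 37 counts in WT and 77, 83 and 75 in Hom livers (0.23 ± 0.21), and Cdt1, which brings the ring to origins, had 63, 40 and 54 against 46, 114 and 93 (0.21 ± 0.32). Neither passed. Orc1, the ATPase subunit of the origin recognition complex, had 6, 7 and 5 against 7, 9 and 4 counts, and Cdc6 had 7, 5 and 10 against 10, 17 and 19. Both fell under the filter on low counts and were not tested. With a liver left out Cdc6 was kept in 5 of 6 fits and passed in none, with log2 fold changes of 0.40 to 0.88.

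**Figure D2:**
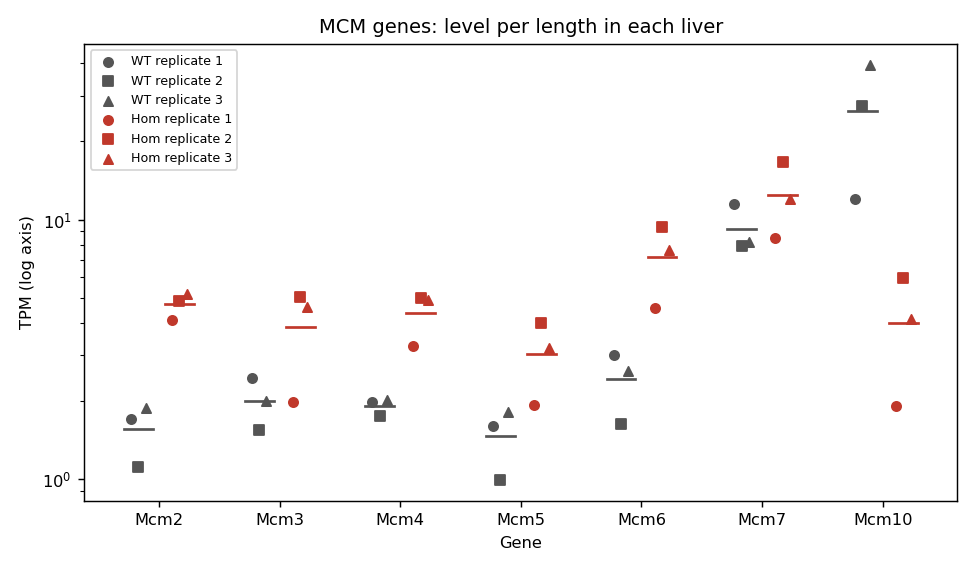
TPM on a log axis for Mcm2 to Mcm7 and Mcm10 in each liver, WT in grey and Hom in red, with a bar at the mean of each group. Mcm10 is the highest of the 7 genes in every WT liver, from 11.98 to 39.5 TPM, and lies below Mcm7 in every Hom liver.

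Genes of helicase activation held both extremes. Mcm10, which binds the ring and polymerase alpha as origins fire, fell the most of all 42 genes. It had 465, 1102 and 1646 counts in WT and 69, 219 and 152 in Hom livers. All Hom livers lay below all WT livers, with 6.27 ± 2.91 CPM against 65.9 ± 37.8 (SD, n = 3), so Hom livers held 9.51% of the WT mean. The log2 fold change was -3.39 ± 0.57 (edgeR adjusted p = 0.00427) and stayed between -3.77 and -2.88 under 14 alternatives, all past the threshold. WT livers differed among themselves too, WT replicate 1 holding the least. In WT livers Mcm10 was, per length, 3.24, 11.0 and 12.8 times the mean of Mcm2 to Mcm7, and in Hom livers 0.473, 0.793 and 0.663 times. Its exons overlapped no other annotated gene. With Mcm10 the summed level of all 44 genes was 173.4 to 202.3 TPM in WT and 209.4 to 302.2 in Hom livers. Without Mcm10 it was 146.0 to 190.4 and 207.5 to 296.3 TPM. TPM is not TMM-scaled, so these sums can include the upward shift that all genes showed with library size alone. The higher sums in Hom livers are therefore not read as a rise of these genes.

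Gins2, a subunit of the 4-member GINS complex, rose the most. It had 5 counts in each WT liver and 34, 37 and 24 in Hom livers, without overlap. Its log2 fold change was 2.17 ± 0.34 (edgeR adjusted p = 0.00327), and it passed in all 13 alternatives in which it was tested. With 5 counts in each WT liver it entered the test through the Hom livers alone. The filter of 10 counts in all livers dropped it, and also Uhrf1 and Ccne1, each with 7 counts in WT replicate 2. The other GINS subunits did not pass: Gins1 had 46, 28 and 39 against 41, 47 and 64 counts (-0.03 ± 0.26), Gins3 18, 6 and 10 against 19, 23 and 21 (0.44 ± 0.39), and Gins4 203, 209 and 178 against 216, 278 and 241 (-0.16 ± 0.13). Gins4 exceeded Gins2 per length by 29.9, 29.7 and 26.2 times in WT livers and by 4.83, 5.60 and 7.58 times in Hom livers, a gap narrower in every Hom liver than in any WT liver. Cdc45, the remaining helicase part, had 28, 23 and 31 against 25, 28 and 29 counts. After scaling, all 3 Hom livers lay below WT (1.19 ± 0.0521 against 1.65 ± 0.227 CPM; log2 fold change -0.47 ± 0.24, edgeR adjusted p = 0.163, and -0.01 with library size alone).

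In the polymerases and primase, 1 of 6 genes passed. Pole, the catalytic subunit of the leading strand polymerase, had 32, 36 and 37 counts in WT and 58, 96 and 94 in Hom livers, and the groups did not overlap. The log2 fold change was 0.75 ± 0.24 (edgeR adjusted p = 0.0446). It passed in 5 of 14 alternatives, and of the 6 that leave out a liver only in that without Hom replicate 1. Pold1, the catalytic subunit on the lagging strand, also had every Hom liver above WT (87, 64 and 62 against 108, 160 and 136 counts) but did not pass (0.45 ± 0.18, edgeR adjusted p = 0.0828). The genes that start each strand were not past the threshold either: the polymerase alpha subunits Pola1 (35, 33 and 39 against 41, 60 and 61 counts, 0.12 ± 0.23) and Pola2 (186, 127 and 105 against 119, 185 and 152, -0.34 ± 0.21), and the primase subunits Prim1 (36, 26 and 40 against 42, 66 and 65, 0.29 ± 0.26) and Prim2 (67, 34 and 52 against 60, 84 and 82, 0.10 ± 0.25).

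Subunits of the clamp loader went in different directions. Rfc2, a small subunit of the loader, had 310, 247 and 295 counts in WT and 490, 476 and 495 in Hom livers, and no Hom liver reached down to WT. Its rise was small, at 0.32 ± 0.10 (edgeR adjusted p = 0.0421), passed in 5 of 14 alternatives, and was lost when any of the 6 livers was left out and with DESeq2 (adjusted p = 0.0576). Rfc5, another small subunit of the same loader, had 182, 133 and 135 counts in WT and 109, 141 and 126 in Hom livers. In CPM all Hom livers lay below WT (5.44 ± 0.363 against 8.996 ± 1.018), and the log2 fold change was -0.72 ± 0.14 (edgeR adjusted p = 0.00800). This call was lost with library size alone (-0.27, edgeR adjusted p = 0.27) and held in the other 13 of the 14 alternatives. Rfc5 does not reach the minimum log2 fold change of 1 in size, which is not among the 14. The ratio of Rfc2 to Rfc5 per length was 1.95, 2.12 and 2.50 in WT and 5.15, 3.86 and 4.50 in Hom livers, so their balance shifted in every Hom liver whatever the scaling.

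No further gene of this group passed. Pcna, the clamp, was among the most abundant genes per length (26.7 ± 4.35 TPM in WT and 44.5 ± 8.04 in Hom livers) and had 420, 329 and 365 against 454, 645 and 573 counts, a log2 fold change of 0.11 ± 0.11. The loader subunits Rfc3 (115, 66 and 70 against 64, 115 and 118 counts, -0.22 ± 0.27) and Rfc4 (25, 20 and 29 against 25, 35 and 39, -0.05 ± 0.27) overlapped between groups. So did Fen1, which trims Okazaki fragments (90, 40 and 69 against 63, 113 and 110, 0.06 ± 0.31), and Rpa2, which coats single-stranded DNA (95, 64 and 81 against 104, 107 and 78, -0.19 ± 0.21). Lig1, which seals the fragments, had 84, 34 and 43 counts in WT and 89, 177 and 160 in Hom livers, with Hom replicate 1 between the WT livers in CPM. It missed the threshold at 0.94 ± 0.35 (edgeR adjusted p = 0.0658), and passed without WT replicate 1 (1.34, edgeR adjusted p = 0.0185), without Hom replicate 1 (1.16, edgeR adjusted p = 0.0401), with DESeq2 and with library size alone.

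Among the enzymes of nucleotide supply, Tk1 fell and the other 4 did not pass. Tk1, the thymidine kinase of the salvage pathway, had 228, 278 and 249 counts in WT and 155, 201 and 136 in Hom livers. No Hom count reached the lowest WT count even before scaling, and CPM was 7.13 ± 1.22 against 15.3 ± 2.55. The log2 fold change was -1.10 ± 0.18 (edgeR adjusted p = 0.00411) and ran from -1.22 to -0.63 over 14 alternatives, all past the threshold. Tyms, which makes thymidylate anew, had 183, 127 and 176 against 185, 248 and 207 counts (-0.07 ± 0.15). Within livers the ratio of Tk1 to Tyms per length was 4.07, 7.01 and 4.31 in WT and 2.87, 2.63 and 2.10 in Hom, without overlap, so salvage kinase RNA fell relative to that of the synthase in each Hom liver. Rrm1 and Rrm2, the subunits of ribonucleotide reductase, had 176, 155 and 166 against 203, 263 and 259 counts (0.07 ± 0.12) and 73, 127 and 86 against 72, 182 and 127 counts (-0.09 ± 0.36). Dut, which removes dUTP, had 97, 95 and 115 against 98, 146 and 128 counts (-0.20 ± 0.18).

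Uhrf1, which brings the maintenance DNA methyltransferase to new DNA, rose among the chromatin factors. It had 16, 7 and 14 counts in WT and 31, 103 and 57 in Hom livers. The groups did not overlap, and Hom replicate 2 was well above the other Hom livers. The log2 fold change was 1.87 ± 0.48 (edgeR adjusted p = 0.0199), and it passed in 8 of 13 alternatives. The call was lost without WT replicate 2, without Hom replicate 2, without Hom replicate 3, and with the replicate number as a block, with or without the length correction. The large subunits of the histone chaperone CAF-1 had higher values in Hom livers that did not pass: Chaf1a (28, 28 and 24 against 50, 78 and 50 counts, no overlap, 0.67 ± 0.25, edgeR adjusted p = 0.0693) and Chaf1b (24, 23 and 13 against 29, 60 and 47, 0.70 ± 0.35, edgeR adjusted p = 0.151). With library size alone both passed.

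Of the G1/S regulators only Ccne1 passed. Cyclin E1, the partner of CDK2 at S phase entry, had 14, 7 and 18 counts in WT and 82, 38 and 40 in Hom livers. Every Hom liver was above WT, and here Hom replicate 1 was the highest. The log2 fold change was 1.59 ± 0.49 (edgeR adjusted p = 0.0365), and it passed in 9 of 13 alternatives, with a liver left out only without WT replicate 3 or Hom replicate 2. Its paralogue Ccne2 had 16, 10 and 12 counts in WT and 11, 36 and 10 in Hom livers, with Hom replicate 2 alone above WT in CPM and the other Hom livers below (0.10 ± 0.53, which turned to -0.084 with the replicate number as a block and -0.68 without Hom replicate 2). E2f1, an activator, had 57, 49 and 67 against 79, 107 and 123 counts (0.36 ± 0.22), and passed with library size alone (0.82, edgeR adjusted p = 0.0268). The repressors E2f7 (5, 12 and 9 against 8, 18 and 17, 0.23 ± 0.48) and E2f8 (111, 88 and 171 against 35, 194 and 95, -0.70 ± 0.53) overlapped between groups, E2f8 with a wide spread among Hom livers.

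Brca1, which protects stalled forks and acts in homologous recombination, was among the steadiest of the rises. It had 31, 23 and 23 counts in WT and 93, 85 and 96 in Hom livers. The livers of each group lay close to each other and far from the other group, at 1.54 ± 0.169 and 3.99 ± 0.436 CPM. The log2 fold change was 1.37 ± 0.21 (edgeR adjusted p = 0.00304), and it passed under all 14 alternatives.

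**Figure D3:**
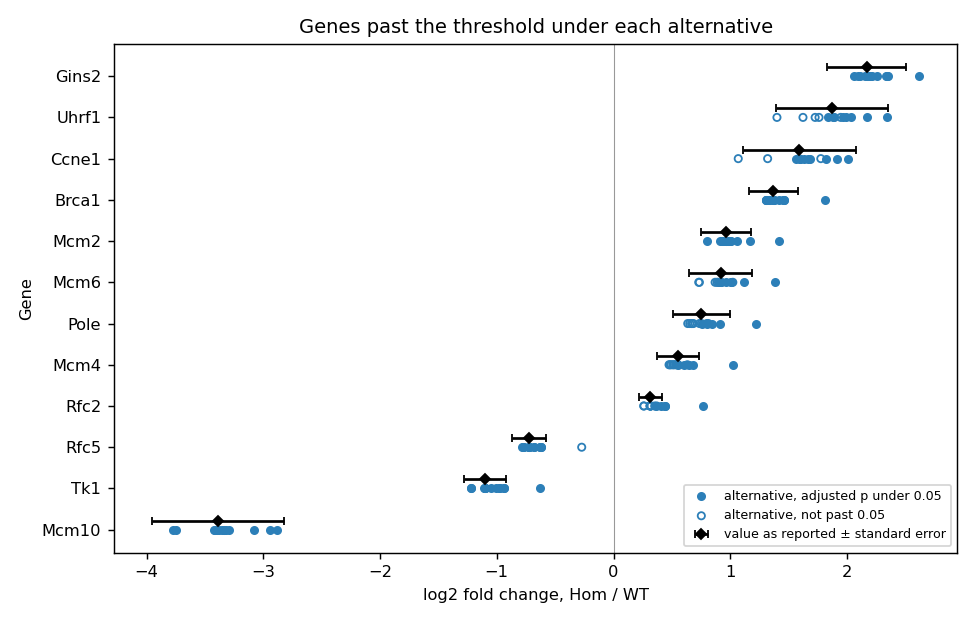
Log2 fold change of Hom over WT (horizontal axis) for the 12 genes past the threshold, as a black diamond with its standard error and, below it, blue circles for each alternative, filled where adjusted p was under 0.05. Gins2, Brca1, Mcm2, Tk1 and Mcm10 have filled circles only, whereas Mcm4, Pole and Rfc2 are filled in 5 of 14.

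The order of livers was shared by many of these genes. Among Hom livers, replicate 1 was the lowest in 32 of the 42 genes (76.2%, against 39.4% of all genes) and replicate 2 the highest in 23 (54.8% against 31.4%). Among WT livers, replicate 2 was the lowest in 24 (57.1% against 29.9%). Genes of 1 liver share its cells and its library, so these are not independent observations. In 6 genes Hom replicate 1 was instead the highest Hom liver, among them the rising Gins2, Rfc2, Ccne1 and Brca1.

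The rest of the replication machinery was read from 75 further genes listed by role. Of the 68 tested, 14 were higher (20.6%) and 6 lower (8.82%), with a median log2 fold change of 0.13, again beside 21.5% and 20.1% of all genes; with library size alone 38 were higher and 0 lower. The smallest adjusted p values among the rises were those of Pold4, the small accessory subunit of polymerase delta (239, 271 and 246 against 588, 622 and 592 counts, 0.78 ± 0.11), Cdc25a, the phosphatase that activates CDK2 (105, 65 and 82 against 412, 339 and 248, 1.54 ± 0.25), and Pold3, another accessory subunit of that polymerase (161, 153 and 143 against 288, 398 and 370, 0.73 ± 0.12). None of these groups overlapped. The smallest among the falls were those of Rnaseh2c, a subunit of the nuclease that removes ribonucleotides from DNA (474, 325 and 395 against 292, 332 and 343 counts, -0.77 ± 0.11), Rbbp4, a histone-binding subunit of CAF-1 and other complexes (1963, 1475 and 1589 against 1068, 1640 and 1402, -0.76 ± 0.13), and Pole4, an accessory subunit of polymerase epsilon (421, 337 and 392 against 364, 337 and 320, -0.63 ± 0.11). These 6 had edgeR adjusted p from 0.00268 to 0.00567. Polymerase epsilon thus had a subunit that rose (Pole) and another that fell (Pole4), and in polymerase delta Pold2, named after its value was seen, fell by 0.70 on the log2 scale (edgeR adjusted p = 0.0185), whereas none of the falls passed with library size alone.

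Mitosis genes, listed for comparison, moved more uniformly. Of 22 listed, 20 were tested, 17 rose (85%) and 0 fell, with a median log2 fold change of 1.99. Among the most abundant, Birc5 (survivin, of the chromosomal passenger complex) rose by 1.25 ± 0.36 (edgeR adjusted p = 0.0294) and Aurka, a spindle pole kinase, did not pass (0.36 ± 0.23). Summed TPM of the 22 genes was 17.02, 7.96 and 11.8 in WT and 34.7, 84.5 and 68.7 in Hom livers. Set within each liver against 100 TPM of the replication and G1/S genes other than Mcm10, mitosis genes made up 8.94, 5.45 and 7.65 TPM in WT and 16.7, 28.5 and 26.2 in Hom livers, so the groups did not overlap on a ratio that scaling cannot move. Counts of mitosis genes are low, and the number that rose was 7 without Hom replicate 2, 9 without Hom replicate 3 and 11 without WT replicate 2. The difference between this list and the replication genes was not tested. In promoters of the 19 mitosis genes with a window, CCAAT stood in 84.2%, TTTGAA in 73.7% and an E2F spelling in 5.26%.

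**Figure D4:**
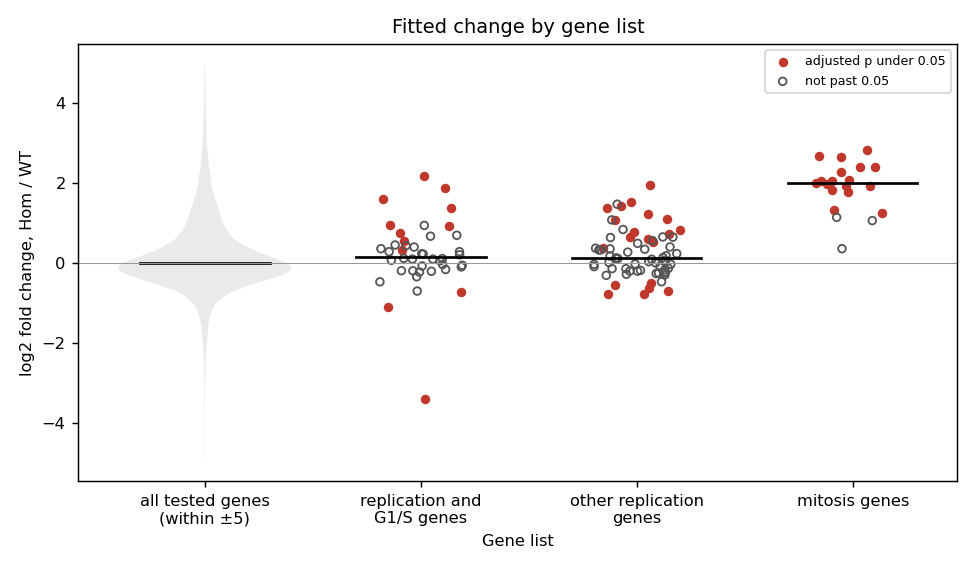
Log2 fold change of Hom over WT (vertical axis) for all tested genes (grey outline, drawn within ±5) and for each gene of 3 lists, filled red where adjusted p was under 0.05, with a bar at the median. Medians are 0.16 for the replication and G1/S genes, 0.13 for the other replication genes and 1.99 for the mitosis genes.

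Upstream of S phase entry, 11 of 12 D-type cyclin, CDK4/6 and inhibitor genes were tested, of which 4 rose and 1 fell (median 0.42). These were 36.4% and 9.09%, beside 21.5% and 20.1% of all genes. With library size alone 7 rose and 1 fell (median 0.87). The pair with the highest level per length was Cdkn1a, which encodes the CDK inhibitor p21 and fell by 1.95 on the log2 scale (edgeR adjusted p = 0.000159), and Cdk4, which did not pass (0.20 ± 0.09).

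Markers of other liver cells moved with the groups. Of 10 cholangiocyte markers 9 rose, and their sum was 54.1 to 98.8 TPM in WT and 883.5 to 1376 TPM in Hom livers, with Spp1 the most abundant (3.78). Of 11 stellate cell and fibroblast markers 7 rose, with sums of 174.3 to 258.6 and 493.1 to 579.1 TPM, Col3a1 rising by 2.29 while the more abundant Dcn did not pass (0.12). Macrophage markers (4 of 12 higher, 2 lower, Lyz2 at 1.30 and Cd5l, not past, at -1.20) summed to 185.1 to 525.4 TPM in WT and 467.2 to 705.3 in Hom livers, overlapping through WT replicate 1. Of 14 hepatocyte markers 8 fell, with sums of 127640 to 176230 and 105300 to 123170 TPM, Alb at -1.26 and Apoa1 at -0.67, and of 10 endothelial markers 6 fell (135.9 to 231.7 and 118.6 to 143.3 TPM, Clec4g at -2.13 and Fcgr2b at -0.61). Lymphocyte markers (1 of 6 tested higher, Nkg7 at 0.78 and Cd79a at 1.00, neither past) summed to 4.14 to 11.3 TPM in WT and 11.4 to 23.6 in Hom livers. Neutrophil markers (0 of 6, S100a9 at -0.64 and S100a8 at -0.57) and erythroid markers (0 of 8 higher and 2 lower, Hbb-bs at 0.94 and Hba-a1 at 0.71, neither past) overlapped between groups in summed TPM, at 9.25 to 413.7 against 57.3 to 230.1 and 794.2 to 3158 against 2142 to 6114. Of the lymphocyte markers 3 had a liver at 0, and so had 3 of the neutrophil markers. With library size alone 4 hepatocyte markers fell, and of the endothelial markers 4 fell and 2 rose. Of the cholangiocyte markers 9 then rose, of the stellate cell and fibroblast markers 10, and of the macrophage markers 7, with 1 falling. The summed TPM of these lists is not TMM-scaled, so its differences between groups can include the shift of all genes. The part of these cells in the rises and falls of replication genes was not tested.

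Overlapping annotation limits 5 of the 12 calls. In GENCODE M21, exons of 16 of the 44 genes overlap those of another gene, among them Gins2 (with Gse1), Pole (Gm15792), Rfc2 (Lat2), Rfc5 (Wsb2) and Tk1 (Afmid), each on the opposite strand, and of those not past the threshold or not tested Orc1, Orc6, Mcm7, Cdc45, Rfc4, Fen1, Lig1, Chaf1a, E2f7, E2f8 and Ccne2. Whether counting used strand is not given in the sources used here, so reads of these pairs may not be told apart.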

How the data were processed

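RNA of 6 livers (3 WT, 3 Hom) was sequenced on the DNBSEQ platform. The authors deposited estimated counts per gene, FPKM and TPM in 1 table, and the submitters' processing notes name HISAT2 2.0.4, Bowtie2 2.2.5, RSEM 1.2.12 and build mm9, while annotation and strandedness are not given in the sources used here. The deposited FPKM served only to derive gene lengths for the length correction. The deposited TPM gave levels per length and was not TMM-scaled. The authors' mean columns, whose names are crossed between the groups, were not used.

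Estimated counts (65.9% of them whole) were rounded and tested with edgeR 4.0.16 in R 4.3.3 (filterByExpr, TMM factors of 0.806 to 1.23, quasi-likelihood test, Benjamini-Hochberg over 13805 genes, threshold 0.05). Each liver is a separate mouse. With 3 livers against 3, an exact permutation test cannot give a two-sided p below 0.1. Alternatives were DESeq2 1.42.0, scaling by library size alone or by upper-quartile factors, a filter of 10 counts in all livers or none, a replicate block, a loess length correction (limma 3.58.1) with and without that block, a minimum log2 fold change of 1 in size, and each liver left out. The minimum log2 fold change was applied to counts of genes only, so the alternatives counted for a single gene leave it out. The fitting code was tested on simulated data.

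All 44 genes are described by role, with values in every liver. From the other replication genes, the 3 with the smallest adjusted p in each direction are named, and from each comparison or marker list the pair with the highest mean TPM, except 1 gene that is not reported here. The genes and lists were chosen with earlier results of these data known, so their counts are descriptions. Lists were not tested as sets.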

Additional observations from a re-analysis of the deposited data

How the results depend on the processing

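Leaving aside the minimum log2 fold change of 1, Mcm2, Mcm10, Gins2, Tk1 and Brca1 stayed past the threshold in every alternative that tested them. Mcm2, at 0.96, does not reach that minimum. DESeq2 also called 9 genes higher and 3 lower, with Lig1 gained and Rfc2 lost among the higher. The number of replication and G1/S genes that were higher was 17 with library size alone, 10 with upper-quartile factors, 7 with a minimum of 10 counts per liver and with the length correction, 6 without a filter, 5 with the length correction and the replicate block, and 4 at a log2 fold change of 1 or more. Leaving out each liver gave 3 to 8. The median log2 fold change was 0.63 with library size alone. Of the other replication genes, 38 were higher and 0 lower with library size alone, 9 were higher with the length correction, 7 with the length correction and the block, and 7 were higher and 0 lower at a log2 fold change of 1. Leaving out each liver gave 5 to 13 higher. Mitosis genes that rose numbered 5 with a minimum of 10 counts per liver, where fewer genes were tested, 10 with the length correction and the block, and 7 to 21 with each liver left out. Over all genes, 6574 were higher and 642 lower with library size alone, 1825 and 575 at a log2 fold change of 1, and 1767 to 2750 lower with each liver left out. Counts of higher genes over all genes are not given for the other settings, so the shifts are not read as particular to these lists. The causes of these shifts were not tested.

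WT and Hom replicates share numbers, but they are different mice, and the deviations of same-numbered livers correlated at -0.109, -0.064 and -0.064, so the numbers do not pair them. With the replicate number as a block, 4 replication and G1/S genes, 8 other replication genes and 9 mitosis genes were higher.

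Of 581 values for single genes under an alternative, 488 kept their direction and side of the threshold, 43 lost the threshold, 13 gained it and 37 changed sign. None of the sign changes was in a gene past the threshold. With library size alone Mcm7 became 0.27, Gins1 0.41, Gins4 0.30, Pola2 0.11, Rfc3 0.23, Rfc4 0.41, Rpa2 0.25, Rrm2 0.40, Tyms 0.38 and Dut 0.26. With upper-quartile factors Gins1 became 0.056, Rfc4 0.036 and Tyms 0.019, and with a minimum of 10 counts per liver Gins1 0.011. Gins1 became 0.15 and Rfc4 0.11 with the length correction, and 0.14 and 0.10 with the block added. Ccne2 became -0.084 with the block and -0.089 with the block and length correction. With each liver left out in turn, 9 genes changed sign at least once: Gins1 ran from -0.23 to 0.067, E2f7 from -0.098 to 0.57, Prim2 from -0.091 to 0.28, Fen1 from -0.17 to 0.27, Rrm2 from -0.40 to 0.22, Ccne2 from -0.68 to 0.40, Rfc4 from -0.19 to 0.088, Tyms from -0.19 to 0.0050 and Cdt1 from -0.024 to 0.47. Orc1 and Cdc6, at 4 to 19 counts a liver, did not pass the filter of the main test.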

Other observations

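Of the 75 other replication genes, 7 had too few reads to be tested. Among them, Dtl, the substrate receptor of the ligase that degrades CDT1 in S phase, had 7, 2 and 3 counts in WT and 7, 28 and 23 in Hom livers, in replicate order. Chtf18, of an alternative clamp loader, had 6, 3 and 5 against 7, 18 and 23, and Ticrr, which brings CDC45 to origins, had 6, 1 and 1 against 9, 13 and 10. Exo1, a nuclease of mismatch repair, had 1, 0 and 3 against 5, 6 and 4, and Dscc1, a partner of Chtf18, had 1, 0 and 0 against 2, 3 and 5. Rad51ap1 had 3, 2 and 3 against 7, 25 and 4, and Cdc7, the kinase that fires licensed origins, had 9, 3 and 3 against 7, 12 and 11. These genes were chosen because they were untested, and counts at this depth carry an error as large as many of the differences.

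Among the other replication genes, 33.3% of the 60 with a promoter window held an E2F spelling, CCAAT stood in 48.3% and TTTGAA in 23.3%.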
